A study of Mus musculus with 2 samples.

Results

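The genes described here encode 9 receptors for blood growth factors, namely Epor, Kit, Flt3, Csf1r, Csf3r, Csf2rb, Il3ra, Il6ra and Il7r. They were chosen by name out of 21827 protein-coding genes. DNase-seq maps open chromatin as the sites that the enzyme DNase I cuts most readily. The tissue was the spleen of male B6CASTF1/J mice 4 days old, a cross of the C57BL/6J and CAST/EiJ strains with no other allele or agent named in the labels. The labels give 1 group of 2 biological replicates, so no conditions were compared and no p-values were computed. The sample descriptions number them as separate males, but both carry the same donor identifier, so it is not certain that the SD is between animals. The whole organ was used, and a site open in few cells cannot be told apart from one weakly open in many.

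Blood growth factor receptors sit on the surface of stem and progenitor cells and pass on signals for survival, division and maturation. Kit, Flt3 and Csf1r belong to 1 family of receptor tyrosine kinases, with an enzyme domain of their own inside the cell. Epor, Csf3r, Csf2rb, Il3ra, Il6ra and Il7r are cytokine receptor chains, which carry no kinase and work through JAK kinases and STAT factors bound to them or to a partner chain. The newborn mouse spleen still makes blood, above all red cells, and also holds developing myeloid cells and B cells.

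The longer peak lists held 80323 peaks in replicate 1 and 88723 in replicate 2. Footprints, short stretches within open sites where the enzyme cuts less, numbered 217159 and 252901. The signal of a peak is the authors' value, on a scale that is not stated, and read depth is unknown. Peaks of both libraries that overlap were joined into 60596 shared regions with a median width of 200 bp. Promoters of 6 of 6 erythroid and 5 of 5 B cell marker genes were open in both libraries. So were 2 of 6 macrophage, 3 of 5 neutrophil, 2 of 4 megakaryocyte, 2 of 4 endothelial, 0 of 4 T cell, 0 of 4 mast cell and 0 of 5 stroma markers. Of markers of other organs, 0 of 4 hepatocyte and 1 of 4 pancreas genes were open.

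The receptor genes spanned a wide range of promoter accessibility, with Epor at the top. Open promoters were those with a shared region within 1 kb of a start site annotated for a protein-coding transcript. This held for 8 of the 9 genes (88.9%), beside 59.7% of all protein-coding genes. Csf1r, the receptor of macrophage colony-stimulating factor, was the exception. Promoters differ in their content of CpG dinucleotides, and those rich in them are open in most tissues. Il3ra, Kit, Il6ra and Flt3 have CpG-rich promoters, and 4 of these 4 were open, beside 89.2% of CpG-rich genes. The other 5 have CpG-poor promoters (observed over expected CpG under 0.5), and 4 of these 5 were open, beside 23.5% of CpG-poor genes. In the stricter peak list 6 of 9 were open, beside 54.6% of all genes, and Csf3r, Il7r and Csf1r were not. The count was 8 within 500 bp (58.2% of all genes), within 2500 bp (62.5%), with reciprocal overlap (57.4%) and with the full annotation (60.3%). A peak of replicate 1 lay at 8 of the 9 promoters (62.4% of all genes) and one of replicate 2 at 9 of 9 (62.8%). Positions listed with an FDR (false discovery rate) under 0.05 in both libraries lay at 8 of 9 (61.1% of all genes). A footprint found in both libraries lay within 1 kb for 7 of 9 genes (56.3% of all genes), and for 7 of the 8 open promoters (94.2% of all open ones), with Flt3 the exception.

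By the highest peak within 1 kb of a start site, Epor had a signal of 14.4 ± 4.57 (SD, n = 2) and Il3ra 7.45 ± 0.558 (n = 2). Kit followed at 2.85 ± 0.451 and Il6ra at 2.64 ± 0.189 (n = 2), a pair whose libraries overlap. Flt3 at 0.879 ± 0.156 and Csf2rb at 0.829 ± 0.0743 (n = 2) also overlapped and changed places between the libraries. Csf3r at 0.578 ± 0.148 and Il7r at 0.419 ± 0.0840 (n = 2) came last among the open promoters, and their libraries overlapped as well. Epor exceeded Il7r 36.8-fold in replicate 1 and 30.98-fold in replicate 2. The steps from Epor to Il3ra, from Il3ra to Kit, from Il6ra to Flt3 and from Csf2rb to Csf3r were larger than the SD of either neighbour, with no overlap of the libraries. The step from Csf3r to Il7r (0.159) was slightly above the larger SD (0.148). The median over all genes with a promoter peak was 6.04 in replicate 1 and 4.93 in replicate 2. Epor and Il3ra lay above that median and the other 6 open promoters below it, in each library. The top of this order depends on the window. Within 500 bp of a start site Il3ra, with 2.04 and 1.52, fell below Kit and Il6ra, and Epor, with 7.92 and 4.98, exceeded Il7r 16.6-fold and 13.8-fold. Noncoding genes also start within 1 kb of the open regions at Flt3 (Gm26597), Il3ra (Gm48860) and Il6ra (Gm42809), and the assay does not tell their promoters apart.

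**Figure D1:**
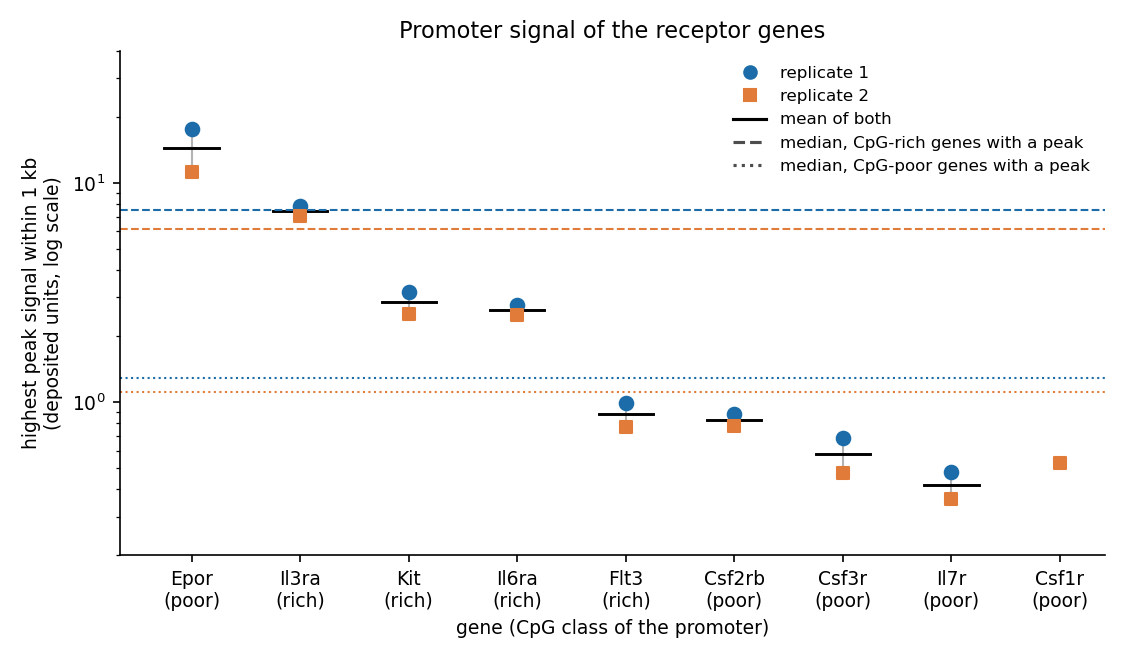
Highest peak signal within 1 kb of a start site (deposited units, log axis) for each gene in replicate 1 (circles) and replicate 2 (squares), with the mean of both (bar) and, in the colour of each library, the medians of CpG-rich and CpG-poor genes with a peak. Epor, a CpG-poor gene, stands at 17.6 and 11.1, while Flt3, Csf2rb, Csf3r and Il7r lie under the CpG-poor medians of 1.29 and 1.11, and Csf1r has a value of 0.527 in replicate 2 only.

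Epor encodes the erythropoietin receptor, which red cell progenitors need to survive and mature. The gene spans chromosome 9, from 21958897 to 21963506 on the minus strand (mm10). Its promoter window held 2 open regions. The stronger covers the first intron, centred 0.855 kb inside the gene, with a signal of 17.6 in replicate 1 and 11.1 in replicate 2. The weaker lies just upstream of the start site, with 7.92 in replicate 1 and 4.98 in replicate 2. Both libraries placed the stronger peak in the intron, and within 500 bp of the start site the mean signal was 6.45 ± 2.08 (n = 2). A shorter transcript of the full annotation, Epor-202, starts inside the intronic region at 21962564. Among CpG-poor genes with a promoter peak, Epor ranked 54th of 2583 in replicate 1 and 107th of 2690 in replicate 2. It was above 97.9% and 96.0% of them. The authors' lowest FDR there was 1.74e-180 in replicate 1 and 4.29e-124 in replicate 2, at positions 1 base apart, 873 and 872 bases into the gene.

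The Epor sequences are shown because its 11 promoter footprints found in both libraries were exceeded only by the 12 of Il3ra among the 9 genes. Capitals mark bases in footprints found in both libraries. Letters are the C57BL/6J reference, from the RefSeq copy of GRCm38, read 5′ to 3′ on the strand of the gene, and stretches in exons of protein-coding transcripts are left out here and for the other genes.
Epor first intron, chr9:21962565-21962760, minus strand: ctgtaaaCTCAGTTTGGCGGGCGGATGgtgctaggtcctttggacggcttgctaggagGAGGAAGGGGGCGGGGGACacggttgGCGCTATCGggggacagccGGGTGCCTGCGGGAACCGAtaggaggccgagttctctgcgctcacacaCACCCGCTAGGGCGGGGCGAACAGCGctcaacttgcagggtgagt
Epor upstream, chr9:21963541-21963720, minus strand: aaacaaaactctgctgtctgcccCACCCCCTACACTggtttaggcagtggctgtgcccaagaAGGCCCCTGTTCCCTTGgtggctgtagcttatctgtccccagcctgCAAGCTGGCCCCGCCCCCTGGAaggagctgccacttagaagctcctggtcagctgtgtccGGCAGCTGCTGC
In the intron, 5 shared footprints covered 93 of the 196 bases printed. They contain GAGGAA, the core bound by PU.1 and related ETS factors, at printed position 59, with 6 of 6 bases inside a footprint. Upstream, 4 shared footprints covered 64 of 180 bases. The GATA letters AGATAA match there on the opposite strand at printed position 91 and lie outside the footprints. An E-box (CAGNTG) at printed position 171 lies wholly within one, and 5 of 8 bases of a KLF match (CCNCACCC) at position 21 do. Over the 200 bp around the centre of each of the 60596 shared regions, searched on both strands, 8.72% hold the GATA letters, 21.5% the PU.1-type letters, 45.7% the E-box and 13.6% the KLF letters. A match names letters and not a bound protein.

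The Epor locus was also the densest of the 9 when all shared regions are counted. The gene and the 50 kb on either side held 15 shared regions, or 14.3 per 100 kb, beside a median of 4.52 over all protein-coding genes. A lower density was found for 91.7% of genes. Of the 15, 7 lie at promoters of neighbouring genes and 6 are distal. By distal regions alone Epor had 5.74 per 100 kb, below the 6.03 of Il6ra, beside a median of 2.28 over all protein-coding genes. The neighbours include Swsap1, a DNA repair gene, with 14.3 and 17.2 in replicates 1 and 2, and the shared promoter of Ccdc151 and Prkcsh, with 17.2 and 15.2. The strongest distal region lies within Tmem205, 39.3 kb downstream of the Epor start, with 4.68 and 3.98. It holds the GATA letters in, or within 5 bp of, a footprint of both libraries.

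The receptor kinases were weaker. Kit encodes the receptor of stem cell factor, needed by stem cells, early red cell progenitors and mast cells. The Kit gene is on chromosome 5, from 75574916 to 75656722 on the plus strand. The region over its start site had a signal of 3.17 in replicate 1 and 2.53 in replicate 2. This was below the CpG-rich medians of 7.53 and 6.14, and above 26.7% and 25.6% of CpG-rich genes with a peak. A second region, 640 bp wide, covers the start of intron 1 with 1.01 and 0.789. None of the 4 mast cell marker genes had a promoter peak in either library, and their summed signal was 0 in both. The upstream part of the start region is shown for its 17 footprint bases, the single shared footprint within it.
Kit upstream, chr5:75574841-75574915, plus strand: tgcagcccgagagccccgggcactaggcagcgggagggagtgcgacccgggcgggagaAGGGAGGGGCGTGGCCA
It is 76.0% G and C and held a match to none of the 12 motifs searched.

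Beyond its promoter, Kit had almost no open site in this spleen. Its locus spans 181.8 kb and held 3 shared regions, or 1.65 per 100 kb, the lowest density of the 9 genes. A lower one was found for 26.1% of all genes. The only distal region lies in intron 2, 33.3 kb from the start, with a signal of 0.532 in replicate 1 and 0.478 in replicate 2. Its lowest FDR was 4.89e-04 in replicate 1 and 0.00355 in replicate 2, and the stricter lists did not both hold it. Farther out, 3 shared regions lay upstream, centred at -114, -123 and -124 kb. The strongest of them, at 75451741 to 75451920, had 1.54 and 0.977. Another lay downstream, at 75761961 to 75762297, with 0.543 and 0.531. These 4 lie outside the 50 kb flank and are counted only with a flank of 150 kb.

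Flt3, the receptor of FLT3 ligand on lymphoid and dendritic cell progenitors, showed the opposite arrangement. The gene is on chromosome 5, from 147330741 to 147400489 on the minus strand. Its promoter had a signal of 0.989 in replicate 1 and 0.768 in replicate 2, the lowest of the 4 CpG-rich promoters in each library, and held no footprint found in both. Yet the locus held 12 shared regions, 7.07 per 100 kb. A region in intron 23, near the end of the gene, reached 2.33 and 2.14, and one past its end, at 147323601 to 147323780, reached 2.28 and 2.33. Each was stronger than the promoter in both libraries. The latter holds the RUNX letters TGTGGT in, or within 5 bp of, a shared footprint. The strongest region of the locus was the promoter of its neighbour Pan3, with 11.5 and 10.6.

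Csf1r was the only one of the 9 without an open promoter, although its locus was not closed. Csf1r marks macrophages and their precursors. The Csf1r gene is on chromosome 18, from 61100598 to 61132149 on the plus strand. Within 1 kb of its start sites replicate 1 had no peak and no listed FDR position. Replicate 2 had 1 peak with a signal of 0.527 and 147 listed bases, with a lowest FDR of 0.00257. A promoter peak in 1 library only was found for 4.87% of all protein-coding genes. Intron 2 nonetheless held a region open in both libraries, at 61108581 to 61108780, with 1.58 in replicate 1 and 1.76 in replicate 2. A well known macrophage enhancer of Csf1r lies in the second intron. The lowest FDR in this region was 7.69e-10 and 1.90e-17, and it contained 2 shared footprints. Of the 6 macrophage markers, Cd68 (1.63 and 1.84) and Vcam1 (0.414 and 0.654) were open, and Adgre1 had a peak in each library (0.559 and 0.180) but did not count as open. Spic, C1qa and C1qb had no promoter peak, and the summed signal of the list was 2.61 in replicate 1 and 2.67 in replicate 2. The other distal regions lie within the neighbouring genes Pdgfrb, with 2.28 and 2.86, and Hmgxb3, with 2.83 and 1.88. The strongest region of the locus was the promoter of Hmgxb3, with 4.13 and 4.03.

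The myeloid cytokine receptors Csf3r and Csf2rb likewise had stronger sites outside the promoter than at it. Csf3r encodes the receptor of granulocyte colony-stimulating factor, the main growth signal of neutrophils. On chromosome 4, Csf3r runs from 126024550 to 126044440 on the plus strand. Its promoter signal was 0.683 in replicate 1 and 0.474 in replicate 2. The peak lies at the upstream start site (Csf3r-202), and neither library had a peak or a listed position within 1 kb of the other start site, at 126027292. A distal region upstream, centred at -6.68 kb, had 1.39 and 0.822, above the promoter in each library. Of the 5 neutrophil markers, S100a8, Ltf and Camp were open and Elane and Mpo had no peak, and the summed signal of the list was 3.58 and 3.72. The strongest distal region of the Csf3r locus lies inside Oscp1, at 126086101 to 126086260, with 4.04 and 3.29, and carries the PU.1-type letters in, or within 5 bp of, a shared footprint. The strongest region of any class in that locus was the promoter of Oscp1, with 6.11 and 4.83.

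Csf2rb encodes the signalling chain shared by the receptors of interleukin-3, interleukin-5 and granulocyte-macrophage colony-stimulating factor. Csf2rb is on chromosome 15, from 78325752 to 78353847 on the plus strand. Its promoter signal was 0.882 in replicate 1 and 0.777 in replicate 2, which was above 38.3% and 39.1% of CpG-poor genes with a peak. An upstream region, centred at -4.74 kb, was stronger in both libraries, with 2.25 and 2.20, and a region in intron 4 had 1.36 and 1.21. Mouse Csf2rb has a close copy next to it, Csf2rb2, which serves interleukin-3 alone. Of the 31-base words within 1 kb of the Csf2rb start sites, 65.1% to 74.5% occur once in the genome, beside 97.5% to 100% for the other 8 genes, so reads of the copies may be lost or exchanged there. Csf2rb2 had a promoter peak in replicate 2 only, with a signal of 0.396.

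These upstream regions are shown because each exceeded the promoter it lies next to.
Csf3r upstream, chr4:126017741-126018000, plus strand: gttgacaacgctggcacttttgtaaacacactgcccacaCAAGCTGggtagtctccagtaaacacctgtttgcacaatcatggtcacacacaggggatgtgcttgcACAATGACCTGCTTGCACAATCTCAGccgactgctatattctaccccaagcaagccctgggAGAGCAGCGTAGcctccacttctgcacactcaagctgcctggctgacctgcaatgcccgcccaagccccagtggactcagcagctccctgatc
Csf2rb upstream, chr15:78320921-78321100, plus strand: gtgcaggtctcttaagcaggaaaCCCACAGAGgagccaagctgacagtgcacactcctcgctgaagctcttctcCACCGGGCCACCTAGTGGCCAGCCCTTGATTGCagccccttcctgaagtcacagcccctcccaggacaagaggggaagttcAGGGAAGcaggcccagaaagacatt
Capitals again mark footprints of both libraries, 3 in each region. The CEBP letters TTNNGNAA, bound by factors of granulocyte development, occur 4 times in the Csf3r sequence, and the match at printed position 119 lies wholly in a footprint. The Csf2rb sequence holds 1 CEBP match outside the footprints and 1 match to the STAT letters TTCNNNGAA at printed position 153, with 6 of its 9 bases in a footprint. CEBP letters occur in 25.1% and STAT letters in 4.43% of shared regions.

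Il3ra, the alpha chain that gives the interleukin-3 receptor its specificity, differed in shape from the rest. Il3ra is on chromosome 14, from 14346275 to 14356011 on the plus strand. Its strongest region lies upstream, centred at -0.64 kb from the start site, with 7.84 in replicate 1 and 7.05 in replicate 2. The region over the start site itself had 2.04 and 1.52. The strongest value was close to the middle of CpG-rich genes, above 51.7% and 55.0% of those with a peak. Within 500 bp of the start sites the mean signal was 1.78. Another 5 regions of low signal then followed across the gene, with widths of 280, 1460, 836, 399 and 701 bp and signals from 0.368 to 0.866. Only 3 of the 74 regions of the 9 loci were wider than 670 bp, the 99th percentile over all shared regions, and all 3 of these lie in Il3ra. Positions listed with an FDR under 0.05 covered 32.8% of the gene body in replicate 1 and 44.0% in replicate 2. The share was 42.8% and 38.03% for the short Epor gene, and 0.709% to 3.38% for the other 7 genes. All 31-base words of the Il3ra gene body were unique in the genome.

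The strongest Il3ra region is shown for its 84 footprint bases, in 5 footprints of both libraries.
Il3ra upstream, chr14:14345521-14345740, plus strand: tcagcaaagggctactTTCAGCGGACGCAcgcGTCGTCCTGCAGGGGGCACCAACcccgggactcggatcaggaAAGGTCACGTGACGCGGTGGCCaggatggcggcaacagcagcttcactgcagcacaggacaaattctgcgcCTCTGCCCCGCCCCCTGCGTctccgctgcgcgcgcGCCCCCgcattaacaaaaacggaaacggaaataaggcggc
Of the 12 motifs, the printed bases matched only the letters of interferon regulatory factors, at position 202 and outside the footprints. Those letters occur in 1.81% of shared regions.

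Il6ra encodes the ligand-binding chain of the interleukin-6 receptor. The gene runs on chromosome 3, from 89864059 to 89913196 on the minus strand. Its promoter signal was 2.77 in replicate 1 and 2.50 in replicate 2, nearly the same as that of Kit, and it held 5 footprints found in both libraries. Its locus was the second densest by shared regions, with 13, or 8.72 per 100 kb. The 9 distal regions in it had signals of at most 2.06 in replicate 1 and 1.79 in replicate 2. By the lower library, the strongest region of the locus was the promoter of Atp8b2, with 2.77 and 2.88. The Il6ra promoter is shown because its footprints overlap matches to 3 of the motifs.
Il6ra upstream, chr3:89913197-89913400, minus strand: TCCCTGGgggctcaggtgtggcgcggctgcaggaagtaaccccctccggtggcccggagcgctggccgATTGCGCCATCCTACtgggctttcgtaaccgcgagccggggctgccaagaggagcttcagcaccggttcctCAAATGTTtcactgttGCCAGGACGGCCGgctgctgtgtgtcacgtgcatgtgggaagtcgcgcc
The EBF1 letters CCCNNGGGA matched at printed position 1 with 7 of 9 bases in a footprint, and a CEBP match at position 135 had 3 of 8. A PU.1-type match at position 135 had 1 of 6. EBF1 letters occur in 5.57% of shared regions.

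Il7r encodes the alpha chain of the interleukin-7 receptor, which early B and T cells need. Il7r is on chromosome 15, from 9505788 to 9530176 on the minus strand. It had the weakest promoter of the 8 that were open, with 0.478 in replicate 1 and 0.360 in replicate 2. The lowest FDR was 6.35e-04 and 0.00653. Its locus had 5 shared regions, 2 of them in the stricter list of both libraries, and no distal region lay inside the gene. The strongest, at 9472721 to 9472920, is 57.01 kb downstream of the start, with 1.15 and 0.871. In the same libraries all 5 B cell markers were open, with a summed promoter signal of 8.43 in replicate 1 and 11.5 in replicate 2. Of the 4 T cell markers measured, Cd8a had a peak in replicate 2 only and Cd3e, Cd3d and Cd4 had none. The 102 open bases upstream of the Il7r start are shown for their RUNX letters, at printed position 65, next to the single footprint.
Il7r upstream, chr15:9529836-9529937, minus strand: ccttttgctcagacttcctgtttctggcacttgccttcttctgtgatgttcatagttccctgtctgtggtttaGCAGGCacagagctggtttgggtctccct
The RUNX letters occur in 14.7% of shared regions.

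Over the 9 loci there were 74 shared regions, of which 14 lay at the genes' own promoters, 16 at promoters of other genes and 44 elsewhere (59.5% distal, beside 64.6% of all shared regions). Of the 44, 6 overlapped an exon of the receptor genes, and another 7 were centred in one of their introns. For 4 of the 8 genes with a promoter peak in both libraries (Flt3, Csf3r, Csf2rb and Il7r) a distal region was stronger than the own promoter in both, beside 25.6% of all such genes. By class these were 3 of 4 CpG-poor genes, beside 51.1%, and 1 of 4 CpG-rich genes, beside 20%. Of the 9, Kit and Il3ra had the strongest region of the locus, by the lower library, at their own promoter. A footprint of both libraries lay in 83.8% of the 74 regions, beside 77.8% of all shared regions. The loci held 297 footprints in replicate 1 and 331 in replicate 2, of which 170 were found in both. A further 16 regions were seen in replicate 1 only, with a median signal of 0.505, and 23 in replicate 2 only, with a median of 0.466.

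**Figure D2:**
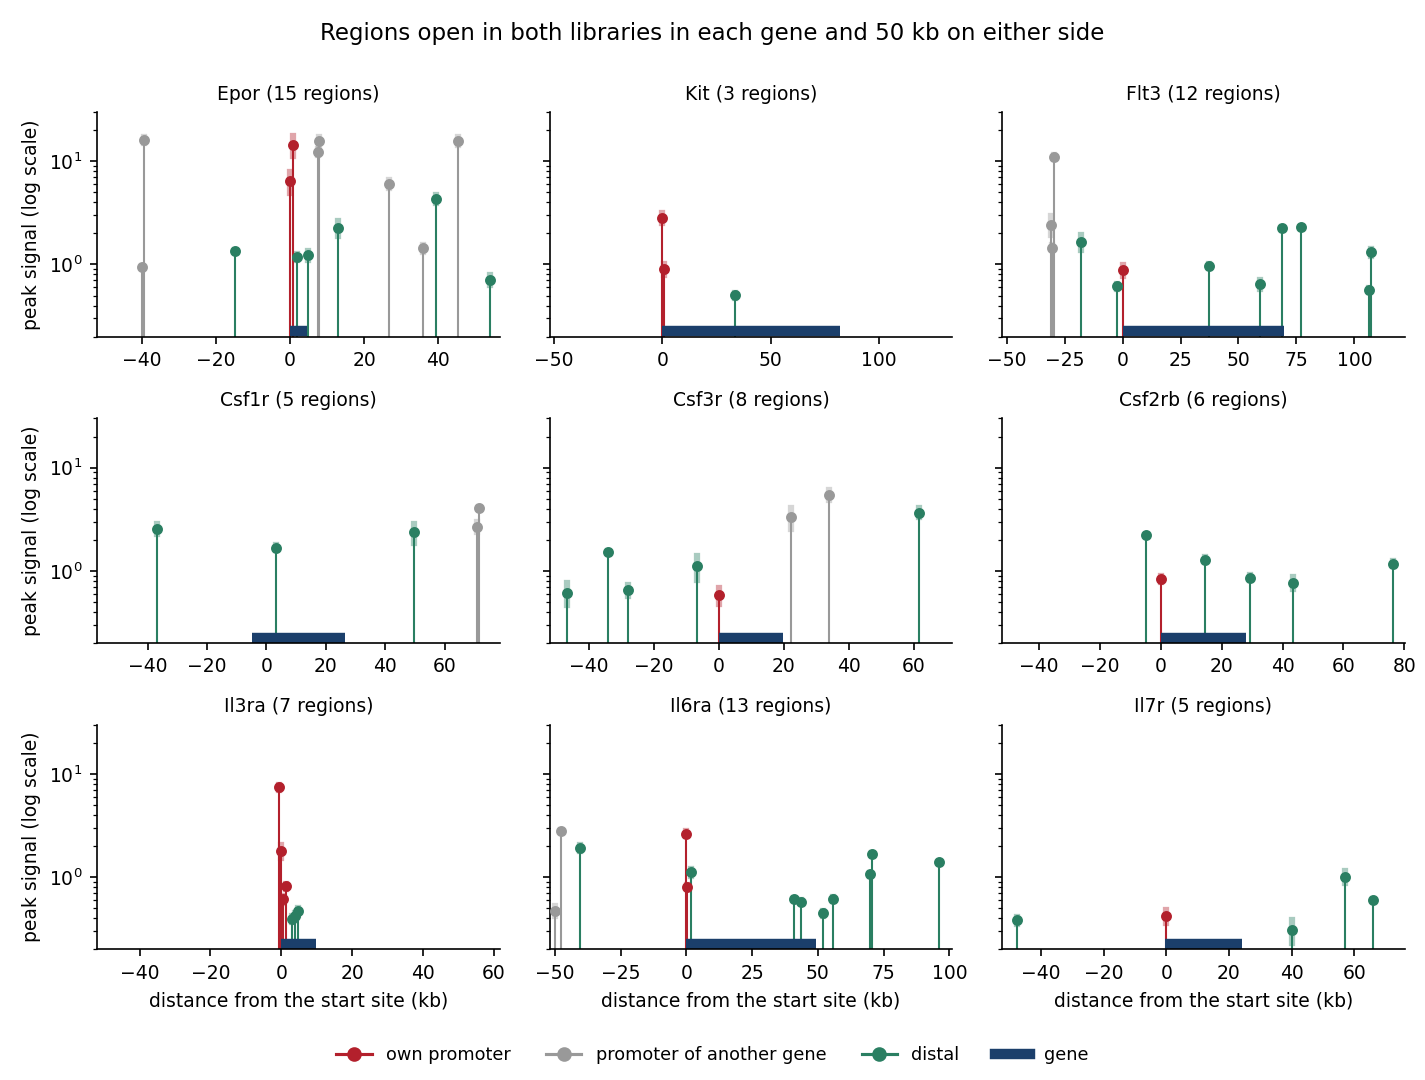
Mean peak signal of both libraries (log axis) against the distance of the region's centre from the most upstream start site used (kb, along the gene's direction) for the 74 shared regions. Pale bars span the values of the 2 libraries, colours give the class of region and the dark bar is the gene: Epor shows 15 regions and Kit 3, and in Csf1r no own promoter region appears.

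Across the 58 regions at own promoters or elsewhere but not at other genes' promoters, several motif letters were about as frequent as in all shared regions and others were not. GATA letters occurred in 8.62% of the 58 beside 8.72% of all, PU.1-type letters in 24.1% beside 21.5%, RUNX letters in 15.5% beside 14.7% and the E-box in 50% beside 45.7%. AP-1 letters (TGANTCA) were found in 10.3% beside 5.25%, which is 6 regions. KLF letters were found in 8.62% beside 13.6% and MYB letters (CNGTTA) in 12.1% beside 16.1%. The ETS letters CCGGAA, common at CpG-rich promoters, were found in 1 region (1.72%) beside 10.1%. All shared regions include promoters of every gene, while 44 of the 58 are distal. Of these 44, 4 held GATA, 9 PU.1-type, 7 RUNX and 23 E-box letters. AP-1 letters lay in 5 of the 44, KLF letters in 2, MYB letters in 5 and ETS letters in 1. Among all distal regions the shares were 11.6% for GATA, 23.4% for PU.1-type, 18.4% for RUNX and 52.3% for E-box letters. They were 6.63% for AP-1, 12.8% for KLF, 18.7% for MYB and 5.63% for ETS letters. These shares are descriptions over few regions and were not tested.

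Of the 8 open promoters, the one at Epor differed most between the replicates. The log2 ratio of replicate 2 over replicate 1 was centred by its median across shared regions (-0.16). It was -0.50 at the intronic Epor region and -0.51 at the upstream one. Both lie within the central 95% of all shared regions, from -0.59 to 0.72, near its lower end. In the same locus the Swsap1 regions had 0.44 and 0.33, so neighbouring sites went opposite ways. Of the 8 open promoters, 6 had a negative ratio, with Csf3r next at -0.36, while Il3ra (0.01) and Il6ra (0.02) were close to the median of all shared regions. Without centring 8 of 8 were negative, with Il3ra and Il6ra at -0.15 each. Centred on promoter regions 5 of 8 were negative, where Csf2rb changed from -0.02 to 0.06. Before centring the median over all promoter regions was -0.24. Most promoter regions were thus negative with or without the centring on all shared regions. Their exact share was not counted. Over all 74 regions the median was -0.01 and 39 were negative. In the Csf3r locus 7 of 8 regions were negative under each of these scalings, among them the upstream region at -0.59. Only 2 of the 74 regions, this one and a weak region of Il7r, fell outside the central 95%.

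Marker genes moved between the libraries too. Of 6 erythroid markers 5 had a negative centred ratio (median -0.18), and their summed signal was 22.3 in replicate 1 and 17.7 in replicate 2. All 5 B cell markers had a positive ratio (median 0.58). The B cell count was the same under each scaling, and the erythroid count was 5 centred on promoter regions and 6 without centring. The part of these marker differences in the Epor values was not tested.

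**Figure D3:**
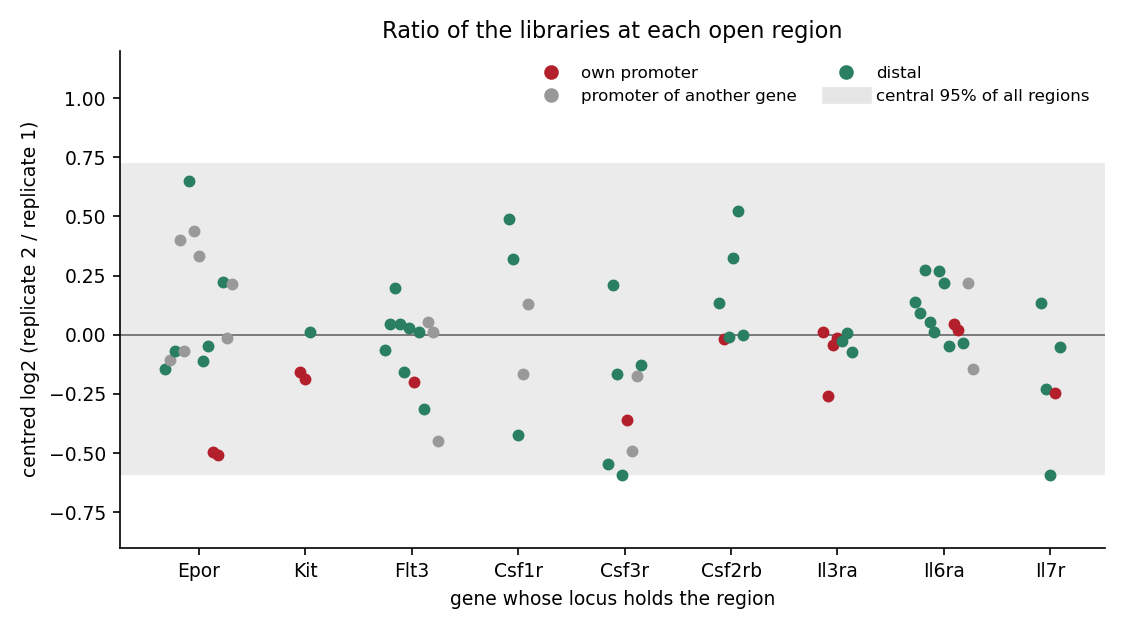
Centred log2 ratio of replicate 2 over replicate 1 at each of the 74 shared regions, by gene locus and class of region. The grey band spans the central 95% of all shared regions (-0.59 to 0.72), and the own promoter regions of Epor lie at -0.50 and -0.51.

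The ligands and signalling partners of these receptors differed widely as groups. Of 13 ligand genes 7 were open (53.8%, beside 59.7% of all genes), and 5 in the stricter list (38.5%, beside 54.6%). By class 4 of 10 CpG-poor ligand genes were open (40%, beside 23.5% of CpG-poor genes) and 3 of 3 CpG-rich ones (beside 89.2%). Epo, the gene of erythropoietin, which is made mainly in kidney and liver, had the highest value, with 22.2 in replicate 1 and 19.2 in replicate 2. That peak lies at an upstream start site at 137533242 which Epo shares with Gnb2. At the other Epo start site, farther downstream, replicate 1 had a peak of 0.371 and replicate 2 had none, so the Epo value does not describe that start. In the counts above Epo is open, and CpG-rich, by its upstream start only. Flt3l followed with 9.20 and 8.61, though another gene, Gm45713, starts within 1 kb of its start sites. Csf1 had 1.38 and 1.49, and Il6 had 1.60 and 1.30. Csf3, Il3, Il34 and Il5 were among the 6 ligand genes with no promoter peak.

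Of 30 other cytokine and blood cell receptor genes 20 were open (66.7%, beside 59.7% of all genes), and 18 in the stricter list (60%, beside 54.6%). The strongest were the interferon receptor genes Ifnar1, with 23.3 and 19.1, Ifngr1, with 18.99 and 18.6, and Ifnar2, with 8.59 and 6.83, and the shared interleukin-6 family chain Il6st, with 8.87 and 6.92. No promoter peak was found at Il12rb1, Il1rl1, Il2ra and Il2rb, chains of receptors on T, natural killer or mast cells. Csf2rb2, Il13ra1, Il5ra and Il9r had a peak in 1 library only. Among CpG-poor genes of this list 10 of 19 were open (52.6%), beside 23.5% of all CpG-poor genes. Among its CpG-rich genes 10 of 11 were open (90.9%), beside 89.2% of all CpG-rich genes.

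The 25 genes that carry the signal inside the cell, such as kinases, STAT factors, adaptors and SOCS inhibitors, were all open in both libraries and in both peak lists. Of all protein-coding genes 59.7% were open, and 54.6% in the stricter list. Of these 25 genes 20 are CpG-rich, a class of which 89.2% were open and 84.1% in the stricter list. The other 5 are CpG-poor, a class of which 23.5% were open and 18.4% in the stricter list. Strongest among the 25 were Stat3 (30.7 and 33.2), the kinase gene Pim1 (26.5 and 19.9), the adaptor gene Grb2 (23.7 and 19.5) and Jak1 (18.99 and 15.8). Jak2, the kinase that Epor uses, had 14.8 in replicate 1 and 10.3 in replicate 2.

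**Figure D4:**
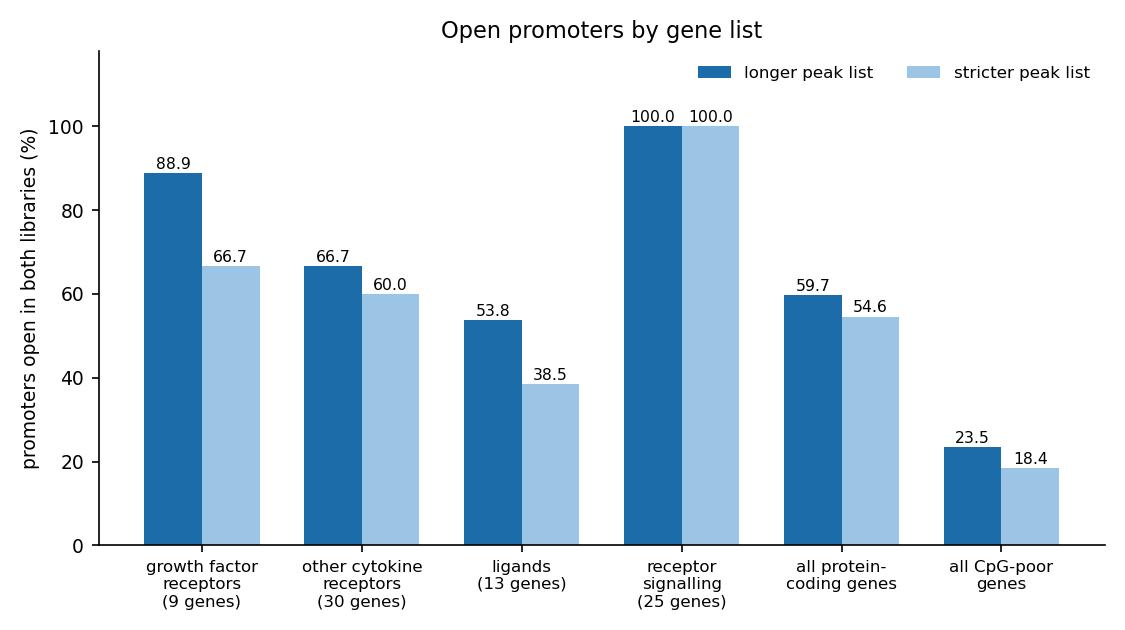
Share of promoters open in both libraries (%) for the 9 receptor genes, 30 other receptor genes, 13 ligand genes and 25 signalling genes, in the longer and the stricter peak list, beside all protein-coding genes and all CpG-poor genes. The receptor genes stand at 88.9% and 66.7%, the signalling genes at 100% in both lists.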

How the data were processed

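DNase-seq files of 2 libraries were used, on mm10 per the labels. The authors deposited a longer and a stricter peak list per library, both with a signal per peak (called per library, scale not stated), footprints that all carry an FDR (q-value) of 0.01, and positions with an FDR (q-value) under 0.05. No label or header read here names the aligner or callers. Depth is unknown, so no counting interval could be given.

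Overlapping peaks (at least 1 bp) were merged into shared regions, and the highest peak of each library gave the signal. Distances and introns were assigned by the midpoint of a region, and promoters and exons by any overlap. Start sites are those of the basic GENCODE vM21 set. The members and lists were chosen with earlier results of these data known. Named were all members, the strongest region per locus, and up to 4 strongest, up to 4 peakless and all single-library genes per list. Other regions and Jak2 were chosen after their values were seen. One T cell marker, Trac, was not matched in the annotation used. CpG class used the 1000 bp around the most upstream start site. Sequences and 12 motifs were read from the GRCm38 RefSeq genome. The counting steps were tested on simulated data. Errors are the SD of 2 libraries, which may be technical in part. Python 3.11.15, numpy 2.4.6, pysam 0.24.0, bedtools 2.31.1 and samtools 1.23.1 were used. Alternatives were the stricter list, other windows and flanks, reciprocal overlap of 50%, each library alone, other scalings and, added after seeing the data, the full annotation.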

Additional observations from a re-analysis of the deposited data

How the results depend on the processing

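Over the alternatives run, 6 to 9 of the 9 promoters were open: 6 in the stricter list, 8 within 500 bp or 2500 bp, with reciprocal overlap of 50% and with all start sites of the full annotation, and 8 to 9 when a replicate was left out. The sum of shared regions over the loci was 74 and went to 48 with a flank of 25 kb and 161 with 150 kb, as fewer or more bases were counted. It was 95 to 104 with 1 replicate left out, where no overlap is asked for. Footprints found in both libraries summed to 170, to 106 with a flank of 25 kb, and to 297 to 331 with 1 replicate left out. The median centred ratio over the 74 regions was -0.01, and it was -0.18 without centring, 0.06 centred on promoter regions and 0.02 in the stricter list. The promoter signal fell to 6.45 for Epor and 1.78 for Il3ra within 500 bp, since their strongest peaks lie farther from the start. In footprints alone the GATA, PU.1-type and RUNX letters were found in 0.952%, 2.86% and 3.81%, since far fewer bases are searched. These are 1, 3 and 4 of 105 footprints found in both libraries. Over all 124484 such footprints the shares were 0.844%, 2.02% and 1.89%. No paired analysis was possible because there was 1 group. Read depth is unknown, so the absence of Csf3r, Il7r and Csf1r from the stricter list does not show that their promoters are closed.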
